A study of Mus musculus with 6 samples.

Results

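The 8 genes annotated as subunits of the clathrin adaptor complex AP-1 (Ap1b1, Ap1g1, Ap1g2, Ap1m1, Ap1m2, Ap1s1, Ap1s2 and Ap1s3), Mal2 and Rab25 were described in 4T1 cells, an established line of mouse mammary carcinoma cells (BALB/c). These 10 genes were taken by symbol from the 54146 genes of each count table, of which 26172 had at least 1 read in any library. All 10 were among the 13755 genes with enough reads to be tested. The group was chosen by the levels of Ap1m2 and Mal2 in these libraries, since the first appears and the other disappears in both knockout clones, so the values of these genes are given as a description with no test. The other 8 genes were tested against wild type and between the clones.

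Wild-type (WT) 4T1 cells were compared with 2 clones of the same line that lack Mki67 (Mki67-/-), the gene of Ki-67, a nuclear protein of dividing cells. All cells were grown in the same medium with serum, and no treatment or time is named. Each group had 2 libraries, made from total RNA after removal of ribosomal RNA with a kit that keeps the strand. Each knockout group is 1 clone, so an effect of the loss of Ki-67 and a difference between single-cell clones and their parent line cannot be told apart. Nothing in the labels ties replicate libraries to different cultures, and the p-values therefore measure a spread that may be technical.

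AP-1 is a complex of 4 subunits that selects membrane proteins at the trans-Golgi network and at endosomes and joins them to clathrin. Its large β1 subunit binds clathrin, its large γ subunit binds accessory proteins, its medium μ1 subunit reads tyrosine-based sorting signals in the tails of cargo, and its small σ1 subunit takes part in reading dileucine signals. In most cells the μ1 subunit is μ1A, from Ap1m1. Epithelial cells also make μ1B, from Ap1m2, and the complex that holds it, AP-1B, sends proteins to the basolateral membrane. Mal2 encodes a MARVEL domain protein that acts in transcytosis, the passage of cargo through polarised epithelial cells to the apical side. Rab25 encodes a small GTPase of the Rab11 family that works at the apical recycling endosome of epithelial cells.

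Reads assigned to genes numbered between 10428970 and 22658499 per library, so that 3 counts corresponded to 0.130 to 0.296 CPM, the count per 1000000 gene reads after scaling of the library size. Mki67 itself stood at 647 and 736 CPM in WT, 85.8 and 103 CPM in clone 1, and 39.9 and 52.7 CPM in clone 2. It fell by 2.88 on the log2 scale in clone 1 (edgeR quasi-likelihood test, adjusted p = 4.03e-10), and it fell by 3.9 in clone 2 (adjusted p = 2.77e-11). Of 14 epithelial markers 13 had reads and Krt5 had none, and their summed level was 4460 to 5170 CPM in WT, 6360 to 6410 CPM in clone 1 and 6390 to 6800 CPM in clone 2. In WT, clone 1 and clone 2, Krt18 stood at 1390, 2010 and 2340 CPM and Krt7 at 716, 1500 and 1610 CPM, while Cldn4 stood at 646, 352 and 404 CPM. Krt18 was named after its values were seen. Of the 13 markers, 5 were called higher and 2 lower in the mean of the clones, so the sum does not stand for each marker. The summed level of 10 immune markers was 37.2 to 44.2 CPM in WT, 5.21 to 5.91 CPM in clone 1 and 6.09 to 7.07 CPM in clone 2, with 6, 3 and 5 of them at 0, Ptprc among those at 0 in WT. Most of the immune sum in WT came from Cd74 and Cd68, at 26.6 and 12.9 CPM. The sum of 8 fibroblast markers was 39.5 to 39.6 CPM in WT and 14.6 to 14.7 CPM in the clones, with 4 at 0 in WT and 3 at 0 in each clone. Nearly all of it was Pdgfra, at 39.3 CPM in WT and 14.4 CPM in each clone. The sum of 6 endothelial markers was at most 0.573 CPM in any library. In bulk RNA, fewer cells of a type and less RNA per cell cannot be told apart, and the part of these marker levels in the results below was not tested.

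Ap1m2 (ENSMUSG00000003309, GRCm38 chr9:21294275-21312337, minus strand) went from a few reads in WT to the level of a well expressed gene in both clones. It had 4 and 1 reads in the WT libraries, which is 0.394 and 0.059 CPM. It had 1087 and 1076 reads in clone 1, or 47.9 and 48.4 CPM, and 959 and 1191 reads in clone 2, or 56.5 and 51.4 CPM. Every clone library was far above both WT libraries, and the 2 libraries of clone 1 lay below those of clone 2. The ratio of clone 1 to WT was 260.7 (exact 95% counting interval 111.5 to 803.6), and that of clone 2 to WT was 290.0 (124.1 to 894). These intervals cover counting error only, and they rest on the 5 WT reads. The WT level of Ap1m2 was 0.393 CPM when WT replicate 2 was left out and 0.0591 CPM when WT replicate 1 was left out. The fitted Ap1m2 level was higher in clone 2 than in clone 1 by 0.16 on the log2 scale, a description with no test.

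**Figure D1:**
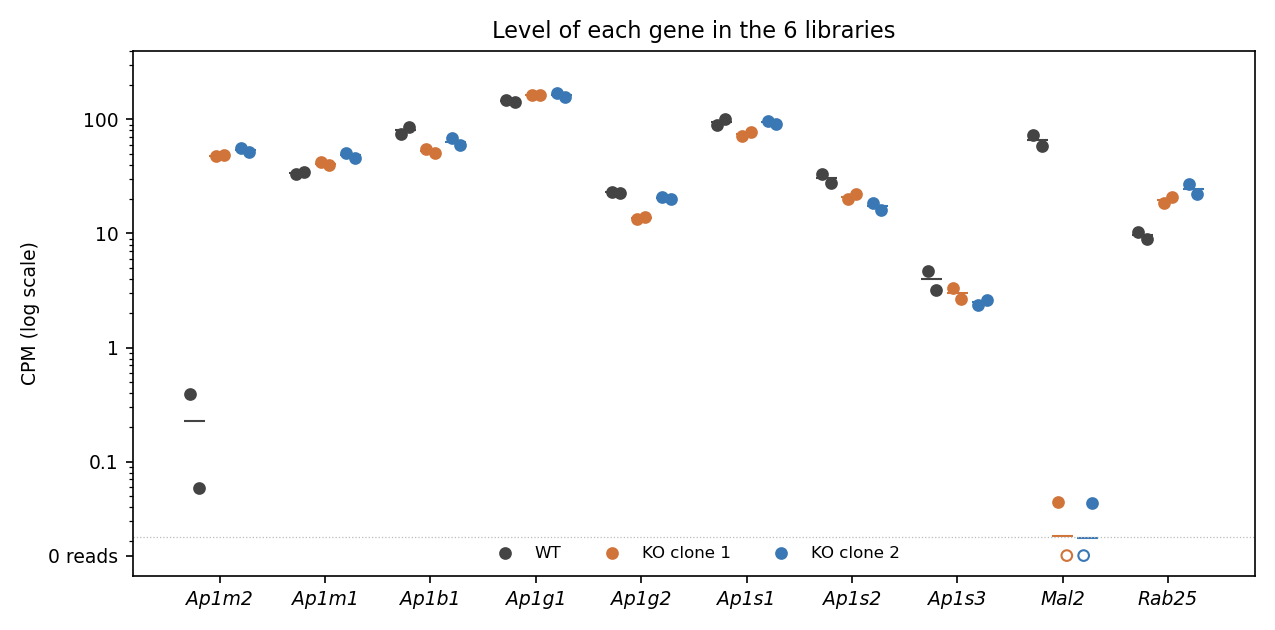
Level of each of the 10 genes in every library, in CPM on a log axis, with 1 point per library, a bar for the group mean and open circles for libraries with 0 reads. Ap1m2 lies below 0.4 CPM in WT and between 47.9 and 56.5 CPM in the 4 clone libraries, and Mal2 lies between 58.9 and 73 CPM in WT and at 0 or 1 read in each clone library.

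The bases just upstream of the start of Ap1m2 are shown because they hold a repeated element, and those of Rab25 because it was the other gene of the group that rose in both clones. Promoter sequences of 8 of the 10 genes were matched in the RefSeq table (build GRCm38.p6), and Ap1m1 and Mal2 were not matched. The 250 bases before the RefSeq start are given, read on the strand of the gene, at chr9:21312334-21312583 (minus strand) for Ap1m2 and chr3:88548280-88548529 (minus strand) for Rab25. Capitals mark CAGGTG or its reverse complement CACCTG, an E-box that zinc-finger repressors of the Zeb and Snail families are known to bind.
Ap1m2: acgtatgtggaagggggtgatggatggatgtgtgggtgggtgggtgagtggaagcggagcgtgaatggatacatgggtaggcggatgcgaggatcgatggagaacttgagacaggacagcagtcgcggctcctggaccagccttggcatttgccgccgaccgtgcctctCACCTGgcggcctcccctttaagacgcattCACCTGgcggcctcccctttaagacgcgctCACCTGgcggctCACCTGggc
Rab25: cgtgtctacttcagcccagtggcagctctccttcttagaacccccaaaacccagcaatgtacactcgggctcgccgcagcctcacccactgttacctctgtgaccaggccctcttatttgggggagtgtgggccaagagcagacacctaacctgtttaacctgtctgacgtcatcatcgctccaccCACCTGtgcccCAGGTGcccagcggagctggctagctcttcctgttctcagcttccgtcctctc
Ap1m2 held 4 matches, which begin at positions -81, -51, -21 and -9 counted from the start site, and its longest exact repeat was 28 bases. Rab25 held 2 matches, at -64 and -53. Ap1g1 held 1 match at -111, Ap1g2 held 1 at -177, and the windows of Ap1b1, Ap1s1, Ap1s2 and Ap1s3 held none. Over the 32851 windows of the same length in the table, 17.2% held at least 1 match on either strand, 2.06% held at least 2, and 0.0426% (14 windows) held at least 4. The looser E-box CANNTG, which includes CAGGTG, was present in 66.2% of all windows and occurred 5 times in Ap1m2 and 2 times in Rab25. The Grainyhead-like site AACCGGTT was found in none of the 8 windows and in 0.116% of all. The form AACCNGTT, which includes it, was found once in Rab25 and in 1.79% of all. GGGCGG was found in 32.7% of all windows and in neither Ap1m2 nor Rab25, and TGANTCA was found in 6.75% of all and once in Ap1g2. A match describes these letters and shows no binding.

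With Ap1m2, the transcripts of the μ1 subunit came from 1 gene almost alone in WT and from a pair of genes in the clones. Ap1m1 (ENSMUSG00000003033, chr8:72240018-72257385, plus strand) stood at 33.1 and 34.3 CPM in WT, 42.0 and 39.7 CPM in clone 1, and 51.2 and 46.0 CPM in clone 2. The groups did not overlap, and clone 2 was highest. Ap1m1 was higher than WT by 0.52 in clone 2 (log2, standard error 0.123, adjusted p = 0.00192 by edgeR), while the difference of 0.28 in clone 1 did not pass the threshold of 0.05 (adjusted p = 0.0726). Genes of chromosome 8 had a median log2 difference of 0.28 in clone 1 and 0.39 in clone 2. With the median of each chromosome removed, the difference of Ap1m1 was 0.13 for clone 2 (adjusted p = 0.389 by edgeR) and -0.01 for clone 1 (adjusted p = 0.968), so the call did not hold on that scale. Per kb of exon, Ap1m2 made up 1.19% and 0.174% of the μ1 level in the WT libraries. It made up 53.7% and 55.2% of that level in the libraries of clone 1 and 52.8% and 53.1% in those of clone 2. The share of Ap1m2 was thus slightly above that of Ap1m1 in every clone library. With the longest transcript as the length of each gene, it was 47.0% in clone 1 and 45.5% in clone 2, so which of the pair is the more abundant depends on the length used. The summed μ1 level was 10.7 ± 0.184 CPM per kb in WT (SD, n = 2), 28.2 ± 0.387 in clone 1 and 32.4 ± 2.29 in clone 2. The coding sequences of Ap1m1 and Ap1m2 shared 76.2% of their aligned bases, and neither gene shared a stretch of 50 bases with the transcripts of another gene.

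The other subunit families showed no such shift. Since Ap1m2 was chosen for its change, this comparison is a description. The summed γ level was 24.3 ± 0.558 CPM per kb in WT (SD, n = 2), 24.7 ± 0.314 in clone 1 and 26.3 ± 1.37 in clone 2. The β1 level was 16.2 ± 1.74 CPM per kb in WT, 10.6 ± 0.511 in clone 1 and 12.9 ± 1.37 in clone 2. The σ1 level was 50.6 ± 2.44 CPM per kb in WT, 39.2 ± 2.48 in clone 1 and 47.1 ± 2.00 in clone 2. In WT the summed μ1 level was the lowest of the 4 families, and in both clones it lay above β1 and γ.

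**Figure D2:**
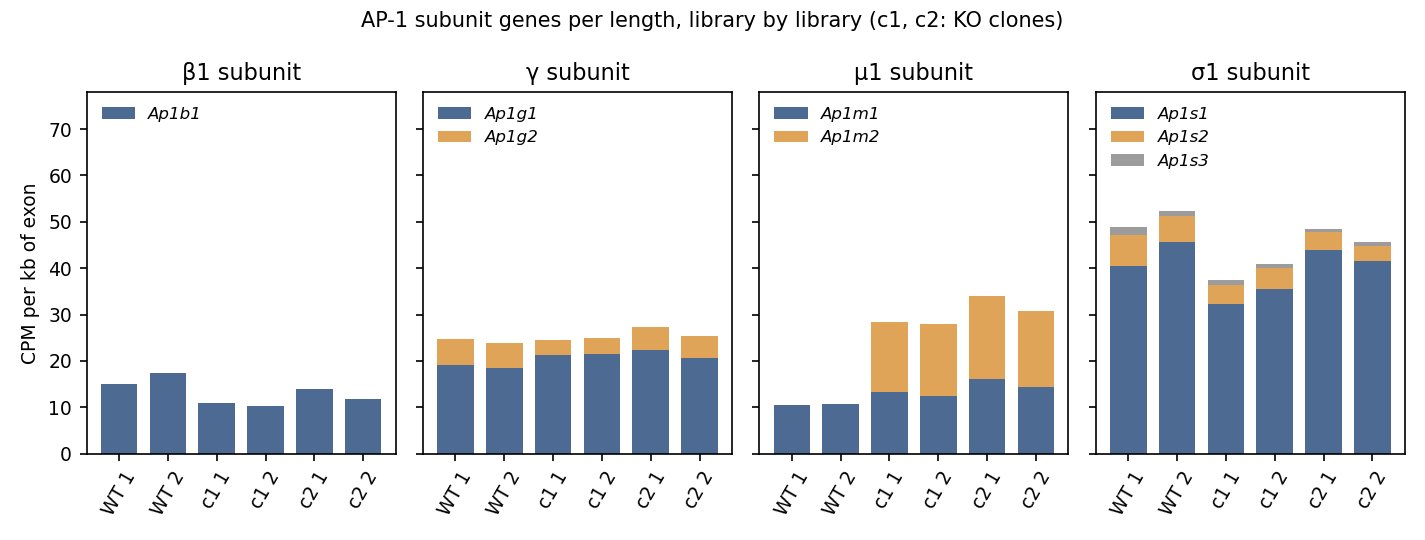
Level of the AP-1 subunit genes in each of the 6 libraries, in CPM per kb of exon, stacked by the genes that encode each subunit, with replicate numbers after WT, c1 (clone 1) and c2 (clone 2). The μ1 column rises from 10.5 and 10.8 in WT to between 27.9 and 34.1 in the clones, where Ap1m2 makes up 52.8% to 55.2% of it.

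Ap1b1 (ENSMUSG00000009090, chr11:4986824-5042791, plus strand), the gene of the β1 subunit, fell in both clones. Its levels were 74.4 and 86.6 CPM in WT, 54.5 and 50.9 CPM in clone 1, and 68.7 and 59.1 CPM in clone 2. The WT libraries were above all clone libraries. The difference from WT was -0.61 in clone 1 (log2, standard error 0.126, adjusted p = 0.000762 by edgeR) and -0.34 in clone 2 (adjusted p = 0.033). The call in clone 2 did not hold without WT replicate 2 (-0.22, adjusted p = 0.185 by edgeR), without clone 2 replicate 2 (-0.24, adjusted p = 0.196), or without either clone 1 library (adjusted p = 0.0528 and 0.061). It did not hold either with no filter on low counts (-0.27, adjusted p = 0.122) or with the chromosome medians removed (-0.20, adjusted p = 0.204), while the call in clone 1 was kept in each of these settings.

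The γ subunit is encoded by Ap1g1 (γ1) or by its paralogue Ap1g2 (γ2). Ap1g1 (ENSMUSG00000031731, chr8:109778554-109864204, plus strand) stood at 147 and 142 CPM in WT, 163 and 165 CPM in clone 1, and 172 and 158 CPM in clone 2. Its difference from WT was 0.18 in clone 1 (95% interval -0.05 to 0.42, adjusted p = 0.178 by edgeR) and 0.19 in clone 2 (-0.04 to 0.42, adjusted p = 0.16). With the chromosome medians removed these values were -0.10 and -0.20, again not called, so no direction is given for Ap1g1. Ap1g2 (ENSMUSG00000040701, chr14:55098575-55106593, minus strand) stood at 23.2 and 22.7 CPM in WT, 13.5 and 14.0 CPM in clone 1, and 20.7 and 19.9 CPM in clone 2. Clone 1 was the lowest group and none of the groups overlapped. Ap1g2 fell by 0.74 on the log2 scale in clone 1 (standard error 0.134, adjusted p = 0.000262 by edgeR), and the difference in clone 2 was -0.18 (adjusted p = 0.275). Per length, Ap1g2 made up 22.6% ± 0.169 of the γ level in WT (SD, n = 2), 13.3% ± 0.17 in clone 1 and 18.5% ± 0.465 in clone 2. The annotated span of Ap1g2 overlaps that of Thtpa on the other strand over 412 bases, introns included. Thtpa stood at 14.1, 13.3 and 21 CPM in WT, clone 1 and clone 2. Reads on the strand opposite to Ap1g2 numbered 79 and 103 for WT, 128 and 127 for clone 1 and 189 and 160 for clone 2, and they are not part of the counts used. Scaled for library size they were 7.79 and 6.08 CPM in WT, 5.64 and 5.71 CPM in clone 1, and 11.1 and 6.91 CPM in clone 2. On that scale clone 1 lay below WT, and clone 2 overlapped with WT.

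The 3 genes of the σ1 subunit differed in level and in which comparisons were called. Ap1s1 (ENSMUSG00000004849, chr5:137034993-137046135, minus strand), the gene of σ1A, was the most abundant AP-1 subunit gene per length in every library. It stood at 89.1 and 100 CPM in WT, 71.0 and 78.2 CPM in clone 1, and 96.8 and 91.4 CPM in clone 2. Clone 1 lay below both other groups, and clone 2 overlapped with WT. Ap1s1 fell by 0.35 in clone 1 (log2, adjusted p = 0.0224 by edgeR), and the difference in clone 2 was -0.01 (95% interval -0.26 to 0.24, adjusted p = 0.943). The call in clone 1 was lost without either clone 1 library (adjusted p = 0.244 and 0.0721 by edgeR), without WT replicate 2 (adjusted p = 0.105), with no filter (adjusted p = 0.127) and with the chromosome medians removed (adjusted p = 0.242).

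Ap1s2 (ENSMUSG00000031367, chrX:163909017-163933666, plus strand), the gene of σ1B, fell in both clones. It stood at 33.5 and 27.8 CPM in WT, 19.9 and 22.1 CPM in clone 1, and 18.5 and 16.0 CPM in clone 2. Both WT libraries were above all clone libraries. The difference was -0.54 in clone 1 (log2, standard error 0.142, adjusted p = 0.00481 by edgeR) and -0.83 in clone 2 (standard error 0.145, adjusted p = 0.000169). Without clone 1 replicate 1 the value in clone 1 was -0.47 (adjusted p = 0.0589 by edgeR). Ap1s3 (ENSMUSG00000054702, chr1:79606876-79671972, minus strand), the gene of σ1C, was the lowest subunit gene of the clones, at 4.73 and 3.19 CPM in WT, 3.31 and 2.65 CPM in clone 1, and 2.36 and 2.63 CPM in clone 2. Its groups overlapped in part, and its differences of -0.37 and -0.62 did not pass the test (adjusted p = 0.237 and 0.0568 by edgeR). The difference in clone 2 did pass without WT replicate 2 (-0.91, adjusted p = 0.0148 by edgeR) and with a filter of 1 CPM (-0.64, adjusted p = 0.0484). Of the 2923 stretches of 50 bases in the Ap1s3 transcripts, 13.3% occur in transcripts of other genes, so some of its reads may not have been assigned to it. Per length, Ap1s1 made up 85.0% ± 3.10 of the σ1 level in WT (SD, n = 2), 86.6% ± 0.46 in clone 1 and 90.8% ± 0.225 in clone 2, and Ap1s2 made up 12.2% ± 2.22, 10.8% ± 0.117 and 7.35% ± 0.449.

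Rab25 (ENSMUSG00000008601, chr3:88542029-88548300, minus strand) rose in both clones. It stood at 10.4 and 8.86 CPM in WT, 18.6 and 20.7 CPM in clone 1, and 27.4 and 22.1 CPM in clone 2. The 3 groups did not overlap, with WT lowest and clone 2 highest. The difference from WT was 1.05 in clone 1 (log2, standard error 0.162, adjusted p = 6e-05 by edgeR), a 2.06-fold rise, and 1.37 in clone 2 (standard error 0.162, adjusted p = 3.15e-06), a 2.59-fold rise. These calls were kept in every alternative run. Between the clones Rab25 differed by 0.33 (95% interval 0.02 to 0.64), which was not called (adjusted p = 0.112 by edgeR).

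Of the 8 genes tested, 5 were called in clone 1 (1 higher and 4 lower) and 4 in clone 2 (2 higher and 2 lower). Over all genes tested, 50.9% were called in clone 1 (24.7% higher, 26.2% lower) and 53.4% in clone 2 (25.3% higher, 28.2% lower), so a count of 4 or 5 in 8 is close to the background. The same 2 WT libraries serve both comparisons, so the calls in the clones are not independent of each other. For the mean of both clones against WT, 5 of the 8 were called, Ap1m1 and Rab25 higher and Ap1b1, Ap1g2 and Ap1s2 lower, where 56.0% of all genes were called (26.6% higher, 29.4% lower). The median log2 difference of the 8 genes was -0.36 in clone 1 and -0.09 in clone 2, beside -0.01 and -0.02 over all genes tested. Without clone 1 replicate 1 the count in clone 1 was 3, and with the chromosome medians removed the count in clone 2 was 2.

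**Figure D3:**
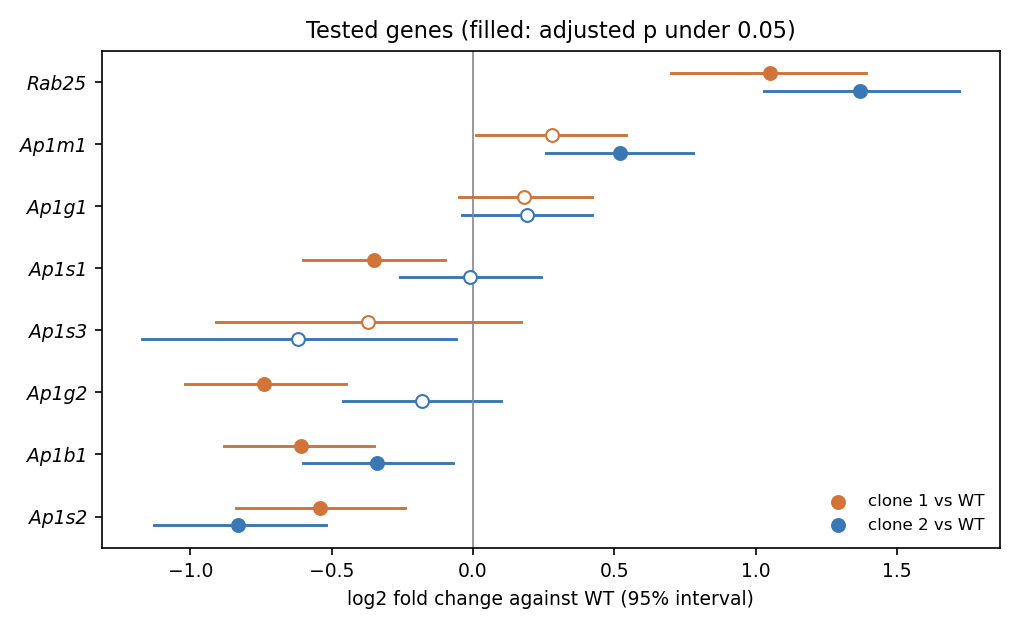
Log2 fold change of the 8 tested genes against WT with its 95% interval, for clone 1 and clone 2, where filled points have an adjusted p under 0.05 by edgeR and both clones are set against the same WT libraries. Rab25 lies between 1.05 and 1.37, and the AP-1 subunit genes lie between -0.83 and 0.52.

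Between the clones, 2 of the 8 genes tested were called, Ap1g2 and Ap1s1, both higher in clone 2, where 23.5% of all genes were called (12.1% higher, 11.4% lower). Ap1g2 was 1.48-fold higher in clone 2 (log2 0.56, standard error 0.132, adjusted p = 0.00664 by edgeR). Ap1s1 was 1.26-fold higher (log2 0.34, standard error 0.118, adjusted p = 0.0497). The call of Ap1g2 was lost without either clone 1 library (0.53 and 0.59, adjusted p = 0.0854 and 0.0596 by edgeR) and without clone 2 replicate 1 (0.54, adjusted p = 0.0732). It was lost too with the chromosome medians removed (0.23, adjusted p = 0.225), where the median of chromosome 14 was -0.24 in clone 1 and 0.08 in clone 2. The call of Ap1s1 was lost without any 1 of the 4 clone libraries (adjusted p between 0.104 and 0.393 by edgeR). The other 6 genes tested were not called between the clones.

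Mal2 (ENSMUSG00000024479, chr15:54571192-54602847, plus strand) was well expressed in WT and almost without reads in the clones. It had 740 and 998 reads in the WT libraries, which is 73.0 and 58.9 CPM. Of the clone libraries, clone 1 replicate 1 and clone 2 replicate 2 had 1 read each (0.0441 and 0.0432 CPM), and the other two had none. Each of these levels is below the 3 counts taken as the floor, which come to 0.130 to 0.177 CPM in the clones. The ratio of WT to clone 1 was 2884 (exact 95% counting interval 517.0 to 114000), that of WT to clone 2 was 2577 (461.9 to 101900), and that of WT to both clones together was 2731 (754.8 to 22570). Per kb of exon, Mal2 was in WT below Ap1s1 and above the other members, at 24.7 and 20 CPM per kb against 19.2 and 18.5 for Ap1g1. No stretch of 50 bases of the Mal2 transcripts occurred in the transcripts of another gene. Mal, the paralogue that gives the family its name, shared 65.4% of the aligned coding bases of Mal2. Mal stood at 38 ± 1.21 CPM in WT (SD, n = 2), 21.6 ± 0.334 in clone 1 and 30.5 ± 1.77 in clone 2, and it fell in both (log2 -0.82 and -0.31, adjusted p = 4.88e-05 and 0.0404 by edgeR). Mal was named after its values were seen.

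Per length, the order of the members was in WT Ap1s1, Mal2, Ap1g1, Ap1b1 and Ap1m1, then Ap1s2, Rab25 and Ap1g2, whose libraries overlapped, then Ap1s3 and Ap1m2. In clone 1 the order was Ap1s1, Ap1g1 and Ap1m2 (15.3 and 15.4 CPM per kb), then Ap1m1 (13.2 and 12.5), Rab25 (11.1 and 12.4) and Ap1b1 (11 and 10.3), which lay close to each other without overlap. In clone 2, Ap1m2 (18 and 16.4 CPM per kb) again followed Ap1s1 and Ap1g1, and it overlapped with neither Ap1m1 (16.1 and 14.4) nor Ap1g1 (22.3 and 20.6). The libraries of Rab25 in clone 2 (16.4 and 13.2 CPM per kb) overlapped with those of Ap1m1 and of Ap1b1 (13.9 and 11.9). The higher Rab25 library there was level with the lower Ap1m2 library, at 16.4 CPM per kb each. On this scale Ap1m2 moved from the last place of the 10 genes to the third, and Mal2 from the second to the last. With the longest transcript as length, Ap1m2 lay below Ap1m1 in both clones, so its place there depends on the length used.

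The genes next to Ap1m2 are given as a description, since Ap1m2 itself was chosen for its change. Among the tested genes on either side, the log2 differences from WT in the mean of the clones ran from -0.83 for Pde4a, a cAMP phosphodiesterase gene that starts 147 kb away, to 0.88 for Tmed1, a gene of the early secretory pathway that starts 198 kb away on the other side. The nearest start, 8.36 kb away, was that of Slc44a2, a choline transporter-like gene, which stood at 106 ± 9.27 CPM in WT (SD, n = 2), 142 ± 6.63 in clone 1 and 154 ± 12.7 in clone 2. Cdkn2d, whose start lies 20.9 kb away, stood at 30.3 ± 3.70, 21.8 ± 0.859 and 28.8 ± 0.177 CPM. Keap1, Atg4d, Kri1, Qtrt1 and Dnm2, further neighbours, had mean differences between -0.04 and 0.70.

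On one side of Mal2 the nearest tested genes had low levels in the clones. Ccn3, which encodes a secreted matricellular protein and starts 175 kb away, stood at 4.39 ± 0.62 CPM in WT (SD, n = 2), 0.089 ± 0.00125 in clone 1 and 0.0432 ± 0.061 in clone 2. Enpp2, the gene of the lysophospholipase D autotaxin, starts 382 kb away and stood at 1.76 ± 0.156, 0.0895 ± 0.0642 and 0.341 ± 0.0665 CPM. The fitted level of Enpp2 was lower than in WT by 4.19 in clone 1 and by 2.30 in clone 2 (log2). Ccn3 and Enpp2 had enough reads to be tested only through their WT libraries. Their lower levels in the clones are therefore partly fixed by the filter and are given as a description. Taf2 and Dscc1, beyond them, had mean differences of -0.29 and -0.03, and Deptor, 541 kb away, fell by 0.65 (adjusted p = 0.000575 by edgeR). On the other side Samd12, Ext1, Med30, Rad21 and Utp23 had mean differences between -0.14 and 0.65. All genes of chromosome 15 tested had a median difference of -0.11 in clone 1 and -0.02 in clone 2.

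**Figure D4:**
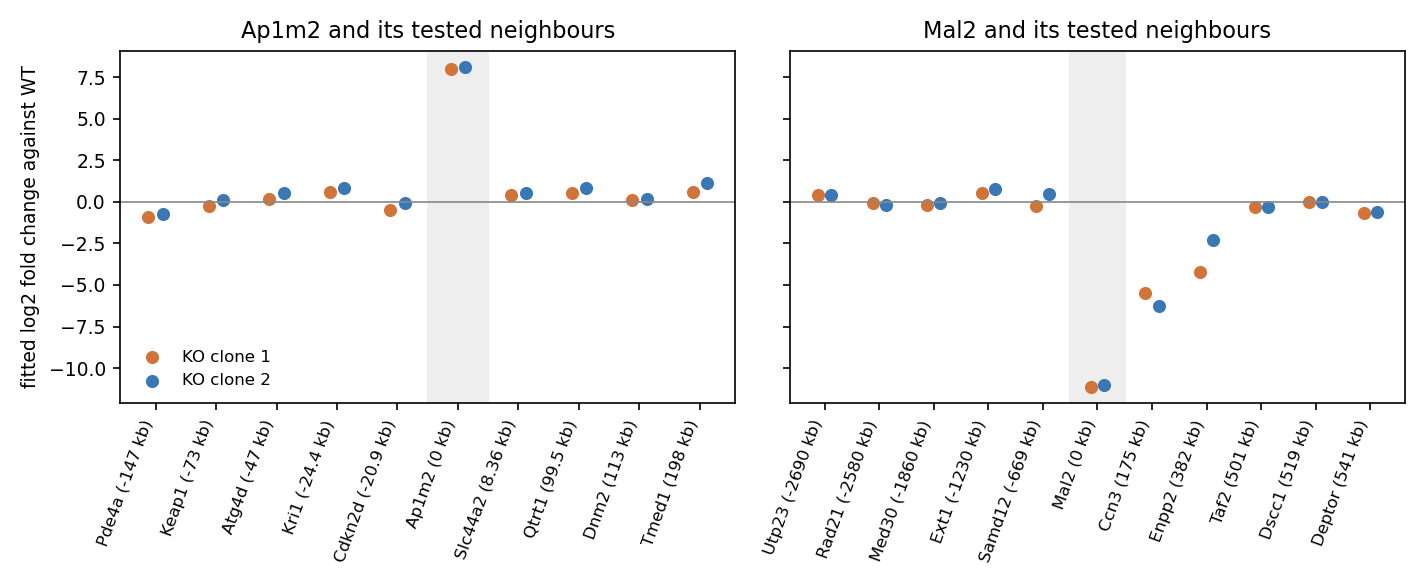
Fitted log2 fold change against WT of Ap1m2, Mal2 and tested genes on either side of each, ordered by position with the distance of their start sites in kb, for both clones. Next to Ap1m2 the values in the mean of the clones lie between -0.83 and 0.88, while next to Mal2 the genes Ccn3 and Enpp2 lie far below 0; the values of Mal2 and Ccn3 rest on a few reads in the clones.

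The other genes of the pathway were taken from 7 lists, given here for the mean of both clones against WT, where 26.6% of all genes were called higher and 29.4% lower and the median was -0.02. Of 19 tested subunits of the other adaptor complexes, AP-2 to AP-5, 4 were higher, 8 were lower and 7 were not called, with a median of -0.18. Ap2a2, an α subunit of the endocytic complex AP-2, stood at 138 ± 8.25 CPM in WT (SD, n = 2), 242 ± 5.35 in clone 1 and 253 ± 14.0 in clone 2 (log2 0.84, adjusted p = 3.2e-06 by edgeR). Ap5z1 of AP-5 and Ap3d1 and Ap3s2 of AP-3 fell by 0.81, 0.49 and 0.48. Of the μ subunit genes in this list, Ap2m1 stood at 33.1, 33.4 and 45.7 CPM in WT, clone 1 and clone 2, Ap3m1 at 36.6, 30.6 and 27.5 CPM, Ap3m2 at 11.5, 14.7 and 14.0 CPM, Ap4m1 at 32.8, 26.8 and 24.5 CPM, and Ap5m1 at 17.3, 13.9 and 12.5 CPM. These 5 genes were named after their values were seen.

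Of 26 tested genes of clathrin and of the recruitment of AP-1 to membranes, 6 were higher, 9 were lower and 11 were not called, with a median of -0.10. Cltc, the clathrin heavy chain to which AP-1 attaches, fell from 693 ± 7.47 CPM in WT (SD, n = 2) to 472 ± 4.11 in clone 1 and 394 ± 30.3 in clone 2 (log2 -0.68, adjusted p = 1.56e-05 by edgeR). Gga2, a monomeric adaptor that works beside AP-1 at the trans-Golgi network, fell from 46.7 ± 4.57 CPM to 15.4 ± 0.657 and 22.9 ± 1.10 (log2 -1.32, adjusted p = 4.23e-08). Rabep1, a Rab5 effector that binds both γ1 and the GGA proteins, fell by 0.67, and Ccdc91, which encodes a protein that binds the GGA adaptors, rose by 0.67.

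Of 11 tested cargo proteins of AP-1, 4 were lower and 6 were not called, with a median of -0.06. The lower genes numbered 3 in clone 1 and 6 in clone 2, where 26.2% and 28.2% of all genes tested were called lower. Igf2r, the receptor that carries lysosomal enzymes from the trans-Golgi network, had 232 and 263 CPM in WT, 116 and 130 CPM in clone 1, and 39.2 and 39.5 CPM in clone 2. Its groups did not overlap, and it fell by 1.83 in the mean of the clones (log2, standard error 0.0978, adjusted p = 2.96e-10 by edgeR). Sort1, the sorting receptor sortilin, fell from 4.33 ± 0.0204 CPM (SD, n = 2) to 0.710 ± 0.242 in clone 1 and 0.567 ± 0.0526 in clone 2. Atp7a, a copper transporter that cycles between the Golgi and the plasma membrane, fell by 0.86.

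Of 17 tested MARVEL domain genes other than Mal2, 8 were higher, 4 were lower and 5 were not called, with a median of 0.19. Plp2 and Syngr2 rose by 0.92 and 0.88 (log2, adjusted p = 3.71e-06 and 6.05e-06 by edgeR). Cmtm3 and Syngr1 fell by 1.05 and 1.12. Mal, the paralogue of Mal2, fell by 0.56. Mal2 was chosen for its change, so its size is not compared with theirs.

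Of 32 tested genes of Rab11 recycling and the exocyst, Rab25 included, 9 were higher, 10 were lower and 13 were not called, with a median of -0.11. The lower genes numbered 8 in clone 1 and 15 in clone 2, and the higher ones 10 and 8. Over all genes tested, 26.2% and 28.2% were called lower in clone 1 and clone 2, and 24.7% and 25.3% higher. Among the class V myosins of the list, Myo5c and Myo5b moved in opposite directions. Myo5a, named after its values were seen, was not called in the mean of the clones (log2 -0.16, adjusted p = 0.22 by edgeR). It was lower in clone 2 (log2 -0.34, adjusted p = 0.0303). Myo5c, an epithelial class V myosin, had 59.3 and 62.1 CPM in WT, 1.93 and 1.94 CPM in clone 1, and 1.88 and 2.03 CPM in clone 2 (log2 -4.96, adjusted p = 8.21e-14 by edgeR). Myo5b, the class V myosin that binds Rab11 and Rab25 and drives apical recycling, had 28 and 28.1 CPM in WT, 56.4 and 59.9 CPM in clone 1, and 65.9 and 67.1 CPM in clone 2 (log2 1.15, adjusted p = 2.13e-07). Rab11fip5, an effector of the Rab11 family, rose from 106 ± 18.1 CPM (SD, n = 2) to 285 ± 17.6 and 298 ± 17.3 (log2 1.45). Rab17, an epithelial Rab with a part in transcytosis, as Mal2 has, had 237 reads in WT, 11 in clone 1 and 3 in clone 2, or 8.34 ± 2.31, 0.245 ± 0.0979 and 0.0648 ± 0.0916 CPM. Rab17 had enough reads to be tested only through its WT libraries. It is counted among the lower genes above, but its lower level in the clones is partly fixed by the filter and is given as a description. Rab11a, a relative of Rab25 found in most cells, with 65.6% of aligned coding bases shared, stood at 82.4, 72.1 and 63.2 CPM and was named after its values were seen.

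Of 16 tested genes of epithelial polarity, 9 were higher, 2 were lower and 5 were not called, with a median of 0.32. By clone, 10 were higher and 1 was lower in clone 1 (68.8% called, beside 50.9% of all genes), and 5 were higher and 1 was lower in clone 2 (37.5% called, beside 53.4%). Both counts rest on the same WT libraries. Pard3 and Pard6b, scaffolds of the apical Par complex, rose by 1.24 and 1.15 (log2, adjusted p = 7.88e-08 and 2.18e-07 by edgeR). Llgl2, of the basolateral Scribble module, rose by 0.98. Crb3, of the apical Crumbs complex, was higher by 0.97 in clone 1 (adjusted p = 1.76e-05 by edgeR), and its difference of 0.26 in clone 2 was not called (adjusted p = 0.126). Crb3 was lower in clone 2 than in clone 1 (log2 -0.72, adjusted p = 0.00112). Stk11, the polarity kinase LKB1, fell by 0.53 in clone 1 and had -0.26 in clone 2, which was not called. Mpp5, the scaffold PALS1, fell by 0.52 in clone 2 and had -0.12 in clone 1, which was not called.

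Of 14 tested regulators of epithelial and mesenchymal state, 6 were higher, 4 were lower and 4 were not called, with a median of 0.44. Ovol1, a repressor of mesenchymal genes, rose from 3.99 ± 0.215 CPM in WT (SD, n = 2) to 14.1 ± 0.432 in clone 1 and 14.5 ± 1.16 in clone 2 (log2 1.85, adjusted p = 9.54e-08 by edgeR). Esrp2, an epithelial splicing regulator, rose by 1.22, and Elf3, an epithelial ETS factor, fell by 1.22. Grhl3, a Grainyhead-like epithelial factor, had 181 reads in WT, 6 in clone 1 and none in clone 2, or 6.63 ± 0.31, 0.134 ± 0.00187 and 0 CPM. Grhl3 is among the 4 genes counted as lower, but it had enough reads to be tested only through its WT libraries. Its lower level in the clones is therefore partly fixed by the filter and is given as a description. The genes of factors that bind the E-box counted in the promoters were looked at after their values were seen. Zeb2 fell from 23.2 ± 2.26 CPM to 13.5 ± 0.851 and 10.9 ± 0.802 (log2 -0.93, adjusted p = 1.16e-05 by edgeR). Snai1 rose from 3.59 ± 1.03 CPM to 8.39 ± 0.464 and 11.2 ± 0.477 (log2 1.39, adjusted p = 1.04e-05). Zeb1 had 3, 1 and 2 reads in WT, clone 1 and clone 2, and Snai2 had 2, 0 and 0, too few to be tested. Twist1, a mesenchymal helix-loop-helix factor also named after its values were seen, fell by 0.92.

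Of 13 tested epithelial markers, 5 were higher, 2 were lower and 6 were not called in the mean of both clones, with a median of 0.09. Over all genes tested, 26.6% were called higher and 29.4% lower there. Cldn7 and Krt7 rose by 1.18 and 1.12 (log2, adjusted p = 3.19e-07 and 3.58e-07 by edgeR), and Epcam rose by 0.86. Cldn4 and Jup fell by 0.78 and 0.33. Among the other cell types' markers, 3 immune markers were tested, of which Cd68 was lower and Csf1r was higher. Cd74 was also called lower, but it had enough reads to be tested only through its WT libraries. Its lower level in the clones is therefore partly fixed by the filter and is given as a description. Pdgfra was lower as the 1 fibroblast marker tested, and no endothelial marker had enough reads.

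**Figure D5:**
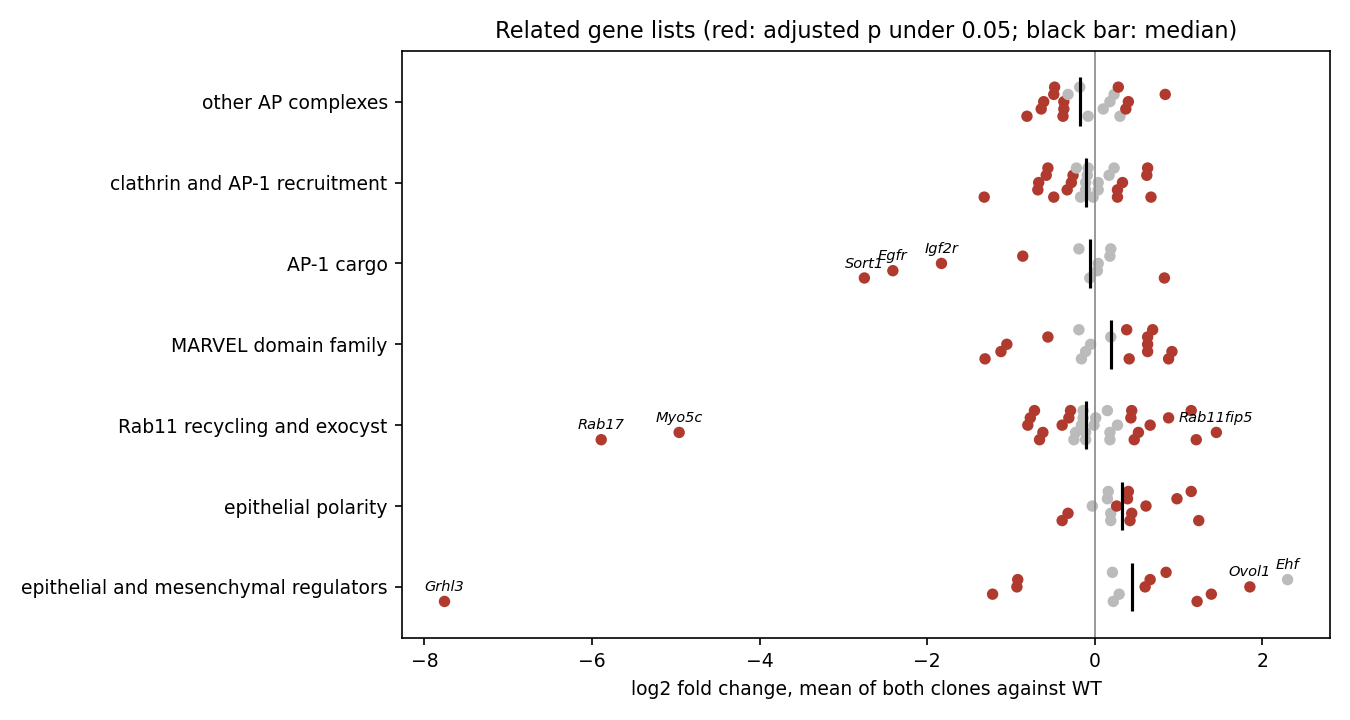
Log2 fold change of each tested gene of the 7 lists, in the mean of both clones against WT, with red points for an adjusted p under 0.05 by edgeR and a black bar for the median of a list. The medians run from -0.18 to 0.44, and single genes such as Myo5c (-4.96) and Ovol1 (1.85) lie far from them. The fitted value of Grhl3, with no read in clone 2, is not a measure of its fold. Grhl3 and Rab17 had enough reads to be tested only through WT, so their red points are a description.

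The genes whose levels were most like those of Ap1m2 were still far from it. Among the 26172 genes with a read, likeness was measured as the distance of log2(CPM + 0.5) over the 6 libraries, where 0 is an identical profile. The 5 nearest genes to Ap1m2 were Dll4, L1cam, Tmem51, Rac3 and Mmp10, at distances of 3.64 to 4.06. Dll4, a Notch ligand gene, stood at 2.94 ± 0.525 CPM in WT (SD, n = 2), 28.2 ± 2.32 in clone 1 and 30.7 ± 0.0639 in clone 2, so even the nearest profile had a higher WT level and a lower clone level than Ap1m2. L1cam, a cell adhesion gene, stood at 3.15 ± 0.135, 60.2 ± 2.93 and 27.4 ± 1.88 CPM.

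The nearest profiles to Mal2 were closer, at distances of 0.45 to 2.09. Hexa, the gene of a lysosomal hexosaminidase subunit, stood at 79.9 ± 5.16 CPM in WT (SD, n = 2) and had no read in any clone library. Vldlr, a lipoprotein receptor gene, stood at 37.2 ± 3.40 CPM in WT, 0 in clone 1 and 0.0294 ± 0.0416 in clone 2. Ly6e, Dzip1 and Zfp704 followed, at 30.2, 29.7 and 35.8 CPM in WT and at most 0.620 CPM in a clone. Likeness was computed over the same 6 libraries for all genes, and it is a description of these profiles.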

How the data were processed

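Total RNA of WT, clone 1 and clone 2 was sequenced, with 2 libraries each. The submitters' processing notes name FastQC, STAR 2.6.0c and the build GRCm38. The deposited values are raw read counts per Ensembl gene, and the reverse-strand count column was used, since 92.3% to 95.7% of reads counted by strand were in it. The annotation used by the authors is not given in the sources used here. Rows that name no gene (46.9% to 56.8% of reads) were left out. Symbols, coordinates and exon lengths came from GENCODE mouse release 21, which matched 54079 of 54146 IDs. In R 4.3.3, edgeR 4.0.16 (limma 3.58.1) filtered genes with filterByExpr, which removed at most 0.107% of a library's reads. It scaled libraries by TMM and fitted 1 quasi-likelihood model with a term per group to all 6 libraries (3 residual degrees of freedom, common biological coefficient of variation 10.3%). Calls had a Benjamini-Hochberg adjusted p under 0.05 over 13755 genes. The fit was tested on simulated data. Replicate libraries were not copies of each other (chi-square of their counts divided by its degrees of freedom 78.8, 17.7 and 25 in WT, clone 1 and clone 2).

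The members and the lists were chosen with earlier results of these data known. Named genes were the 10 members, up to 4 genes per list with the smallest adjusted p in the mean of both clones among those called, every listed gene called against the majority where 3 or fewer were, the 5 nearest profiles and the 5 tested neighbours on each side of Ap1m2 and of Mal2, and Mki67. The results of 2 genes that this rule names are not reported here. Other genes were named after their values were seen, as said beside them. Ap1m2 and Mal2 were to be tested between the clones, but their levels in both clones chose the group, so that test is not used. Alternatives tried were scaling by DESeq2 1.42.0, the Wald test of DESeq2, no filter, a filter of 1 CPM in 2 libraries, unstranded counts, a replicate block, chromosome medians removed, each library left out, and the longest transcript as length.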

Additional observations from a re-analysis of the deposited data

Results flagged for a closer look

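Ap1g2, the gene of the γ2 paralogue in AP-1, changed differently in the clones: the difference between them was 0.56 on the log2 scale (adjusted p = 0.00664 by edgeR, higher in both clone 2 libraries than in both clone 1 libraries). Ap1s1, the gene of σ1A, differed between the clones by 0.34 (adjusted p = 0.0497 by edgeR, with the same order of the libraries). Both calls were lost with the chromosome medians removed, and that of Ap1s1 also with the replicate block. The reads on the strand opposite to Ap1s2, which enter no comparison, were 0 in both WT libraries and averaged 0.125 CPM over the clone libraries. That level is below the 0.177 and 0.296 CPM that 3 counts stand for in the WT libraries.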

How the results depend on the processing

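Of the counts of members called, clone 1 against WT gave 5, and 3 to 5 when each library was left out in turn. Clone 2 against WT gave 4, and 2 with the chromosome medians removed. The mean of both clones gave 5, and 4 to 6 over all alternatives. Clone 2 against clone 1 gave 2. It gave 1 with no filter, with a filter of 1 CPM and with the replicate block, 0 with the chromosome medians removed, and 0 to 2 when each library was left out. The causes were not tested. No called difference of a member changed direction in any alternative, and Rab25 kept its calls. Over the tested members and alternatives, 6 values lost a call in clone 1, 7 in clone 2, 1 in the mean of the clones and 12 between the clones, and 1, 2, 1 and 0 gained one. Ap1m1 in clone 1 was called with no filter (0.36, adjusted p = 0.0374 by edgeR). With the longest transcript as length, the share of Ap1m2 in μ1 was 47% in clone 1 and 45.5% in clone 2, and that of Ap1g2 in γ was 26.5% in WT, 16% in clone 1 and 21.9% in clone 2. No scaling moved the median of all genes by over 0.1.

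The correlation of same-numbered deviations from the group means was -0.229 between WT and clone 1, 0.0727 between WT and clone 2, and -0.00105 between the clones. With 2 libraries a group, these values cannot decide whether libraries were paired or shared a batch. The replicate block lowered the calls over all genes from 6998 to 6704, 7349 to 7130, 7708 to 7476 and 3232 to 2942, and DESeq2 gave 6049, 6490, 6877 and 2621. Among the members the block ended the call of Ap1s1 between the clones (0.34, adjusted p = 0.0733) and no other. At 5 WT reads of Ap1m2 and 2 clone reads of Mal2, the depth limits both ratios to their counting intervals.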
